A study of Mus musculus with 16 samples.

Results

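The 10 genes described here are mouse genes of the periportal hepatocyte, the liver cell that lies near the portal vein: Pigr, Cdh1, Hal, Uroc1, Sds, Gls2, Aldh1b1, Hsd17b13, Hsd17b6 and Ctsc. They were taken by name from a list drawn up with earlier results of these data known, and they make up 10 of the 54838 genes counted in the series. Each name matched 1 gene identifier, and all 10 genes passed the filter on low counts in every comparison. RNA of whole liver from 16 samples was sequenced, all from wild-type male C57BL/6J mice, whose ages are not given in the sources used here. The CCl4 group (n = 3) had received 1 intraperitoneal injection of carbon tetrachloride, a solvent that injures hepatocytes, given 1 to 1 in olive oil at 2 ul per g of body weight, and was killed 3 days later. The olive oil group (n = 3) had the same volume of olive oil alone and the same interval. The PH day 3 group (n = 5) was liver taken 3 days after partial hepatectomy (PH), surgical removal of a part of the liver, and the PH day 0 group (n = 5) was the piece of liver removed at surgery, which served as its baseline. No group carried a transgene or a deletion.

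Blood enters the liver lobule at the portal vein and leaves at the central vein, and hepatocytes along this path divide the liver's work. Periportal hepatocytes, which meet oxygen-rich blood first, are known for breaking down amino acids, making urea and glucose and joining their neighbours through E-cadherin, whereas pericentral hepatocytes are known for drug-metabolising cytochromes and glutamine synthesis. Carbon tetrachloride is converted to its toxic form by a cytochrome of the pericentral cells, and partial hepatectomy removes tissue without regard to zone.

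The 10 genes fall into 4 roles. Pigr is the polymeric immunoglobulin receptor, which carries immunoglobulin A through the cell into bile, and Cdh1 is E-cadherin, the adhesion protein of adherens junctions. Hal (histidine ammonia-lyase) and Uroc1 (urocanate hydratase) are consecutive enzymes of histidine breakdown, Sds (serine dehydratase) turns serine into pyruvate, and Gls2 is the liver-type glutaminase, which releases ammonia from glutamine. Aldh1b1 is a mitochondrial aldehyde dehydrogenase, Hsd17b13 is a lipid droplet protein with retinol dehydrogenase activity, and Hsd17b6 oxidises steroids and retinol. Ctsc is cathepsin C, a lysosomal peptidase that also activates proteases of immune cell granules.

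The promoter windows of the 5 genes that passed the test after partial hepatectomy are printed because these genes moved in opposite directions at the same time. Each runs from 250 bases before to 50 bases after the annotated start, from RefSeq on GRCm38.p6, 5′ to 3′ on the strand of the gene, and 7 of the 10 genes had such a window (the other 3 were Cdh1, Sds and Gls2). Capitals mark exact matches, on either strand, to any of 9 short motifs: TATAAA (the letters of the TATA box), CCAAT (the CCAAT box), GGGCGG (the GC box), TGACG (part of the cAMP response element), TTGCGCAA (a C/EBP palindrome), GTTAAT (part of an HNF1 site), CTTTGA (the TCF/LEF core), TGTTTAC (a forkhead core) and TGTTCT (part of a glucocorticoid response element).
Pigr: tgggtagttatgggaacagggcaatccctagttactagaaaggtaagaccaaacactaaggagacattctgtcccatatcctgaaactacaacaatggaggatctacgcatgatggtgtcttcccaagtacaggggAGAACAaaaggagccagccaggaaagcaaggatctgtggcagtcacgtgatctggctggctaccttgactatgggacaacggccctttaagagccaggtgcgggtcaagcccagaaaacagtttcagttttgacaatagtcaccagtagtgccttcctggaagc
Hal: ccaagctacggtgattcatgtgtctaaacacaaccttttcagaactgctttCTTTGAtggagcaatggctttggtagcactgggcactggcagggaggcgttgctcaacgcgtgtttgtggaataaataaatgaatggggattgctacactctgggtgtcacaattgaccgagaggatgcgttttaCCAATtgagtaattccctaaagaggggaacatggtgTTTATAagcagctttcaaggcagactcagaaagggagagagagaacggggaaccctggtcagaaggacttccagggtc
Aldh1b1: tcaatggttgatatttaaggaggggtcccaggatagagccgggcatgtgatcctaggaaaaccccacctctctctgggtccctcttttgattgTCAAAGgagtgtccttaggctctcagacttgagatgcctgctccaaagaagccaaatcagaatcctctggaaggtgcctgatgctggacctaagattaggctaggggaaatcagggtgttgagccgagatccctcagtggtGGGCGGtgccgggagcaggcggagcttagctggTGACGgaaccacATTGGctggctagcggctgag
Hsd17b13: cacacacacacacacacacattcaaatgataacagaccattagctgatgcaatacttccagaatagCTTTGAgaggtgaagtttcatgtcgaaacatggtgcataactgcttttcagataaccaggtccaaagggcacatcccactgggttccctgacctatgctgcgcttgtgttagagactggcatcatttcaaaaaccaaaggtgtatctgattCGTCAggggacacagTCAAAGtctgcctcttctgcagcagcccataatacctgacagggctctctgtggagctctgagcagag
Uroc1: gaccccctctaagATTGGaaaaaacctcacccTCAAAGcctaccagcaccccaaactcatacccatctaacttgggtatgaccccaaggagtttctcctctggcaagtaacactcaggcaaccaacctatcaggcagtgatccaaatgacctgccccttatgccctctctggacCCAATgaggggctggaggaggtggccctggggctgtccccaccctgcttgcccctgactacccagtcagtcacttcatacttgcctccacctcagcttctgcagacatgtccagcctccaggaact

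The printed windows lie at chr1:130826434-130826733 (Pigr, plus strand), chr10:93488518-93488817 (Hal, plus), chr4:45798772-45799071 (Aldh1b1, plus), chr5:103977339-103977638 (Hsd17b13, minus) and chr6:90333039-90333338 (Uroc1, plus). The TCF/LEF core was found in Aldh1b1, Hsd17b13, Uroc1 and Hal, 4 of the 7 genes with a window, and in 16.0% of all 32851 windows of the RefSeq table. Aldh1b1 and Hsd17b13 also held TGACG, a motif of 20.8% of all windows, and Uroc1, which like them rose after partial hepatectomy, did not. Hal alone held TATAAA, 28 bases before its start and on the opposite strand, against 13.6% of all windows. The CCAAT box was in Aldh1b1, Uroc1, Hal and Hsd17b6, and in 37.4% of all windows. GGGCGG was in Aldh1b1 and Ctsc (35.7% of all windows) and TGTTCT in Pigr and Ctsc (19.0% of all windows). None of the 7 held TTGCGCAA, GTTAAT or TGTTTAC, which 0.183%, 7.10% and 3.65% of all windows did. The motifs that were searched did not overlap one another in the 5 printed windows, and a match is a description of letters only.

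Total counts ran from 4738196 to 6218526 in CCl4, 4295169 to 5221957 in olive oil, 2795909 to 4391002 in PH day 3 and 3271398 to 8647503 in PH day 0 samples. Levels are given as CPM, counts relative to the total of the sample, scaled by TMM, a factor that aligns the bulk of genes between libraries, and 3 counts, the limit that a count of 0 allows, were worth 0.369 to 1.03 CPM. The lowest count of any of the 10 genes in any sample was 75, so all were well within range. The labelled tissue was borne out by the hepatocyte genes, whose 9 measured members summed to at least 95902 CPM in every sample. One library stood apart from its group: over all genes compared, CCl4 replicate 1 differed from CCl4 replicates 2 and 3 by a mean of 0.46 and 0.47 on the log2 scale, whereas those differed from each other by 0.29, and pairs within the other 3 groups by 0.32 to 0.38. Results of the CCl4 comparison are therefore also given without it. In whole liver, fewer cells of a type and less RNA per cell cannot be told apart.

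Per kilobase of exon, Hsd17b13 was the most abundant of the 10 genes in CCl4 livers, at a mean of 239 ± 52.7 CPM per kb (SD), and Pigr came next at 146 ± 26.8. Pigr stood first in the other 3 groups, with means of 347 ± 20.4 CPM per kb in olive oil, 233 ± 15.3 in PH day 3 and 359.6 ± 23.9 in PH day 0 livers. The ranges of these neighbours overlapped in PH day 3 livers but not in CCl4, olive oil or PH day 0 livers. Uroc1 had rank 3 in all 4 groups, from 99.4 ± 4.57 CPM per kb in CCl4 to 154 ± 14.6 in PH day 3 livers. Its range overlapped that of the gene ranked next below in olive oil and PH day 3 livers, and that of Hsd17b13 above it in PH day 0 livers. Gls2, Sds and Hal held ranks 7, 5 and 9 in CCl4 livers, and ranks 4 to 7 in olive oil, PH day 3 and PH day 0 livers. There the wide range of Sds overlapped those of Gls2 and Hal. The ranges of Gls2 and Hal overlapped in PH day 0 livers but not in olive oil or PH day 3 livers. Ctsc was the lowest in CCl4 livers (19.8 ± 2.28 CPM per kb) and in both PH groups, and Cdh1 the lowest in olive oil livers (15.0 ± 2.05). The ranges of Ctsc and Cdh1 overlapped in olive oil livers and in both PH groups. The injection and surgery samples come from separate experiments, so levels of olive oil and PH day 0 livers are set side by side without a test.

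**Figure D1:**
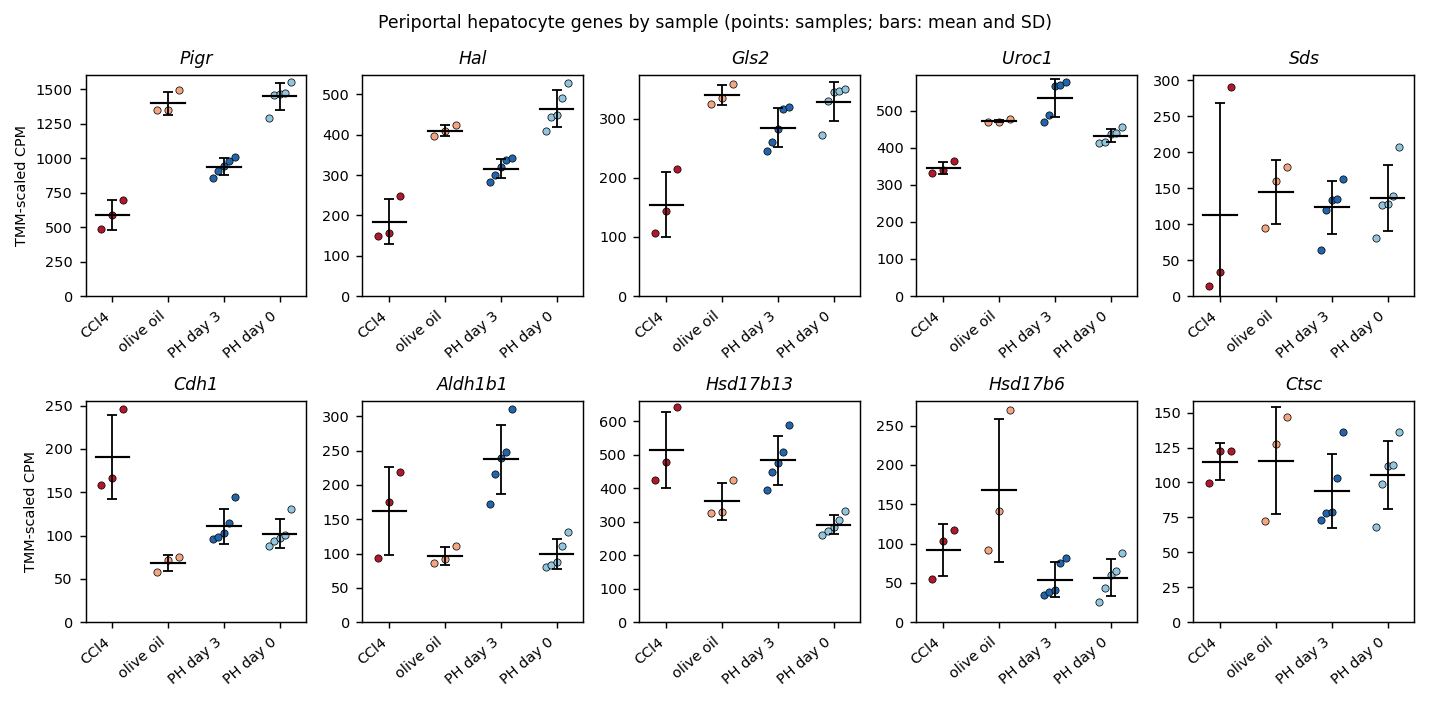
TMM-scaled CPM of the 10 periportal genes (vertical axes, each from 0) in CCl4, olive oil, PH day 3 and PH day 0 livers; points are samples, horizontal lines means and bars 1 SD, and the lower end of the Sds bar in CCl4 falls below 0 and is not drawn. Pigr, Hal and Gls2 sit lower in all 3 CCl4 livers than in any olive oil liver, Cdh1 sits higher in all 3, and Sds spreads from 14.4 to 291 CPM among CCl4 livers.

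The first comparison asks how the periportal genes stood 3 days after a toxic injury, in CCl4 against olive oil livers. The genes did not move together: Cdh1 rose 2.74-fold, while Pigr, Hal and Gls2 fell 2.40-fold, 2.25-fold and 2.23-fold. With edgeR's quasi-likelihood test and Benjamini-Hochberg adjustment over 11337 genes, 1 of the 10 was called higher and 3 lower at an adjusted p under 0.05, where 22.9% of all genes tested were called, 11.3% higher and 11.6% lower. The groups did not overlap for 1 gene that was higher and 4 that were lower, against 21.5% and 20.1% of all genes. The median log2 fold change of the 10 genes was -0.43, beside 0.01 over all genes.

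Pigr measured 698, 482 and 587 CPM in CCl4 livers, against 1491, 1349.8 and 1348 CPM in olive oil livers. Every CCl4 liver was below every olive oil liver, and replicate 2 was the lowest. The log2 fold change was -1.26 ± 0.22 (SE; edgeR adjusted p = 0.00255). Cdh1 measured 158, 246 and 167 CPM in CCl4 livers, against 71.5, 75.8 and 57.9 CPM in olive oil livers. All 3 CCl4 livers exceeded the highest olive oil liver, with replicate 2 above the other two. Its log2 fold change was 1.46 ± 0.20 (edgeR adjusted p = 0.000833), the largest rise among the 10 genes.

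In the amino acid group, Hal measured 249, 149 and 155 CPM in CCl4 livers, against 409, 423 and 396 CPM in olive oil livers. The 3 olive oil livers were close together and all above the CCl4 livers, of which replicate 1 was the highest. Hal fell by 1.17 ± 0.22 on the log2 scale (edgeR adjusted p = 0.00425). Gls2 was also highest in replicate 1 among the CCl4 livers and lower in each of them than in any olive oil liver, with 214, 107 and 143 CPM in CCl4 livers and 359, 326 and 336 CPM in olive oil livers, and a log2 fold change of -1.16 ± 0.24 (edgeR adjusted p = 0.00696). Uroc1, the next enzyme after Hal, measured 332, 341 and 363 CPM in CCl4 livers, against 470.3, 471 and 476 CPM in olive oil livers. Its groups did not overlap either, but the log2 difference of -0.47 ± 0.17 missed the threshold (edgeR adjusted p = 0.0645). It passed with DESeq2 (adjusted p = 0.00820), with limma-voom (0.0398) and in a fit of all 4 groups (0.00671), whereas with scaling by library size alone the difference was -0.0175 (adjusted p = 0.958).

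Sds had no common level in the CCl4 group: 291, 14.4 and 33.3 CPM, against 94.3, 179.6 and 159.9 CPM in olive oil livers. Replicate 1 was above every olive oil liver and replicates 2 and 3 were below every one. The log2 difference was -0.38 ± 1.24 (edgeR adjusted p = 0.866), so its standard error exceeded the difference itself.

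Among the 3 oxidising enzymes, none passed the edgeR test after adjustment, 2 had an unadjusted p under 0.05 (0.0286 for Aldh1b1 and 0.0433 for Hsd17b13), and neither DESeq2 nor limma-voom called any. Aldh1b1 measured 92.9, 175 and 219 CPM in CCl4 livers, against 86.0, 110.4 and 92.2 CPM in olive oil livers, with replicate 1 inside the olive oil range and the other two above it (log2 difference 0.73 ± 0.28, edgeR adjusted p = 0.0943). It passed where no filter on low counts was used (adjusted p = 0.000484). Hsd17b13 measured 424, 479 and 642 CPM in CCl4 livers, against 331, 326 and 426 CPM in olive oil livers. Here only CCl4 replicate 1 fell below the highest olive oil liver (log2 difference 0.49 ± 0.21, edgeR adjusted p = 0.125). Hsd17b13 passed in a fit of all 4 groups (adjusted p = 0.0221).

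Hsd17b6 measured 118, 103 and 54.9 CPM in CCl4 livers, against 141, 92.4 and 269 CPM in olive oil livers. The groups overlapped, and the olive oil livers alone spanned 2.91-fold (log2 difference -0.88 ± 0.47, edgeR adjusted p = 0.240). Ctsc measured 122, 99.5 and 123 CPM in CCl4 livers, against 72.8, 147 and 127 CPM in olive oil livers, all 3 CCl4 livers lying inside the olive oil range. Its log2 difference was -0.03 ± 0.24 (edgeR adjusted p = 0.940), and that sign changed with the scaling.

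By absolute log2 distance, CCl4 replicate 1 was the CCl4 liver nearest to the olive oil mean for 9 of the 10 genes, the exception being Uroc1. The share over all genes was not counted. For Sds it lay above that mean, by 1.06, and replicates 2 and 3 below. For Ctsc the distances were close, 0.142, 0.156 and 0.146. Without CCl4 replicate 1, 3 of the 10 genes were called higher and 5 lower, in a fit that called 14.3% of all genes higher and 15.6% lower. The added genes were Aldh1b1 (log2 fold change 1.02 ± 0.14, edgeR adjusted p = 8.92e-05), Hsd17b13 (0.62 ± 0.16, 0.00988), Sds (-2.64 ± 0.54, 0.0338) and Uroc1 (-0.44 ± 0.13, 0.0212). The 4 genes called with all samples moved the same way without it, Cdh1 by 1.58, Pigr by -1.40, Hal by -1.44 and Gls2 by -1.46.

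**Figure D2:**
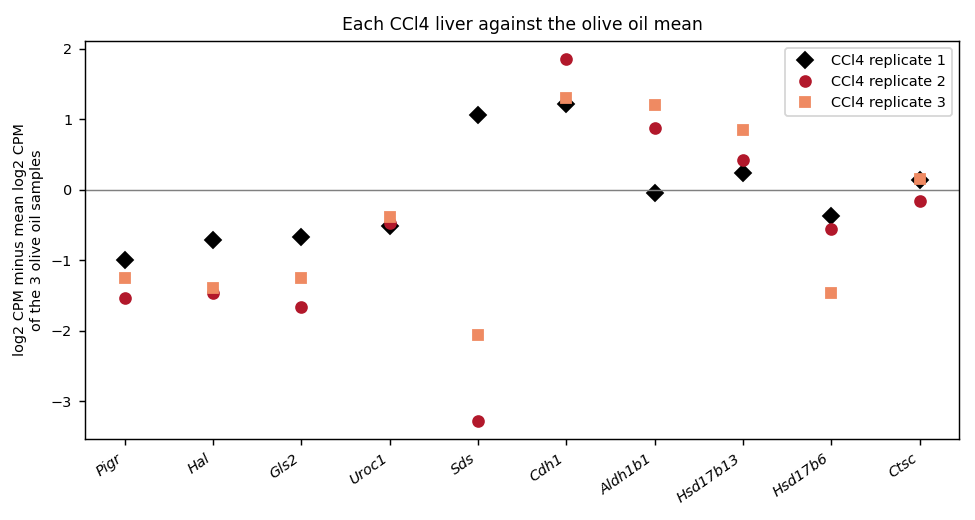
Log2 CPM of each CCl4 liver minus the mean log2 CPM of the 3 olive oil livers (vertical axis) for the 10 periportal genes (horizontal axis); black diamonds are CCl4 replicate 1, red circles replicate 2 and orange squares replicate 3. Sds lies at 1.06 in replicate 1 but at -3.28 and -2.07 in replicates 2 and 3, while the 3 livers lie on the same side of 0 for Pigr, Hal, Gls2, Uroc1, Cdh1, Hsd17b13 and Hsd17b6.

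As with Sds, CCl4 replicate 1 stood apart from replicates 2 and 3 in Pck1 and Arg1, 2 genes of glucose and amino acid metabolism that were picked after their values were seen. Pck1, which makes glucose from lactate and amino acids, measured 3197, 276 and 141 CPM in CCl4 livers, against 2428, 3069 and 3056 CPM in olive oil livers. Arg1, the arginase of the urea cycle, measured 2491, 658 and 1086 CPM in CCl4 livers, against 1292, 1336 and 1292 CPM in olive oil livers. In both genes replicate 1 was above every olive oil liver and replicates 2 and 3 below every one.

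The second comparison asks how the same genes stood 3 days after surgery, in PH day 3 against PH day 0 livers. Aldh1b1, Hsd17b13 and Uroc1 rose 2.42-fold, 1.68-fold and 1.25-fold, and Pigr and Hal fell 1.53-fold and 1.46-fold. So 3 of the 10 genes were called higher and 2 lower by edgeR's quasi-likelihood test, where 17.7% of the 10546 genes tested were called, 9.73% higher and 8.01% lower. The same 5 genes were those whose groups did not overlap, against 6.80% of all genes for higher and 6.51% for lower. The median log2 fold change of the 10 genes was -0.10, beside -0.01 over all genes. Values below follow the replicate numbers from 12 to 16.

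Pigr measured 853, 943, 1008, 903 and 979.7 CPM in PH day 3 livers, against 1466, 1552, 1289, 1455 and 1474 CPM in PH day 0 livers. The highest day 3 liver was below the lowest day 0 liver (log2 fold change -0.61 ± 0.09 SE, edgeR adjusted p = 2.78e-05). Cdh1 measured 103, 114, 98.1, 95.6 and 145 CPM in PH day 3 livers, against 88.4, 131, 97.4, 101 and 93.5 CPM in PH day 0 livers. The groups overlapped, each with 1 liver above the rest (log2 difference 0.13 ± 0.12, edgeR adjusted p = 0.513).

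Both enzymes of histidine breakdown passed the test, in opposite directions. Hal measured 300.3, 338, 342, 319 and 283 CPM in PH day 3 livers, against 529, 410.4, 490.1, 444 and 448 CPM in PH day 0 livers. No day 3 liver reached the lowest day 0 liver (log2 fold change -0.54 ± 0.09, edgeR adjusted p = 0.000126). Uroc1 measured 489, 568, 469, 567 and 576 CPM in PH day 3 livers, against 439, 413, 416, 455 and 437 CPM in PH day 0 livers. Here every day 3 liver was above the highest day 0 liver, by a small margin for replicates 12 and 14 (log2 fold change 0.32 ± 0.09, edgeR adjusted p = 0.0125).

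Sds measured 119.8, 64.1, 135, 162 and 134 CPM in PH day 3 livers, against 139, 80.7, 127, 206 and 128 CPM in PH day 0 livers. The groups overlapped, each with 1 liver well below the rest (log2 difference -0.13 ± 0.30, edgeR adjusted p = 0.819). Gls2 measured 319.6, 260.5, 246, 283 and 316 CPM in PH day 3 livers, against 345, 272, 346, 351 and 330.0 CPM in PH day 0 livers. Day 0 replicate 13 lay among the day 3 livers, and the other 4 day 0 livers lay above all of them (log2 difference -0.19 ± 0.10, edgeR adjusted p = 0.185).

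Aldh1b1 measured 215, 239, 173, 249 and 311 CPM in PH day 3 livers, against 88.1, 83.0, 81.2, 131 and 111 CPM in PH day 0 livers. The groups were well apart, and the log2 fold change of 1.28 ± 0.17 (edgeR adjusted p = 0.000149) was the largest among the 10 genes. Hsd17b13 measured 449.5, 509, 395, 476 and 590.3 CPM in PH day 3 livers, against 273, 333, 286, 304 and 261 CPM in PH day 0 livers. Its lowest day 3 liver was above its highest day 0 liver (log2 fold change 0.74 ± 0.10, edgeR adjusted p = 1.08e-05). Hsd17b6 measured 39.0, 40.5, 81.5, 34.2 and 75.1 CPM in PH day 3 livers, against 43.2, 87.9, 65.2, 60.5 and 25.7 CPM in PH day 0 livers. Both groups spread widely and overlapped throughout (log2 difference -0.07 ± 0.38, edgeR adjusted p = 0.929).

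Ctsc measured 77.9, 73.2, 136, 103 and 79.2 CPM in PH day 3 livers, against 112, 111, 68.4, 99.2 and 136 CPM in PH day 0 livers. Day 3 replicate 14 and day 0 replicate 16 were the highest of their groups, and the groups overlapped (log2 difference -0.15 ± 0.21, edgeR adjusted p = 0.698).

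The third comparison asks whether the injury responses differed, as the log2 change of CCl4 over olive oil minus that of PH day 3 over PH day 0, in 1 fit of all 16 samples. Cdh1 was higher in the CCl4 response, and Gls2 and Uroc1 were lower, so 1 of the 10 genes was called higher and 2 lower, where 5.33% of the 11868 genes tested were called, 1.47% higher and 3.87% lower. The injections and the surgery were separate experiments, each with its own kind of control, and challenge and experiment cannot be told apart. The median difference over the 10 genes was -0.55, beside 0.02 over all genes.

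For Cdh1 the difference was 1.36 ± 0.23 (SE; edgeR adjusted p = 0.00110), from a log2 change of 1.46 after CCl4 and 0.13 after partial hepatectomy. Gls2 differed by -0.93 ± 0.22 (edgeR adjusted p = 0.0142), from -1.16 after CCl4 and -0.19 after partial hepatectomy. Leaving out CCl4 replicate 2 ended the Gls2 call (-0.72, edgeR adjusted p = 0.0543). Uroc1 lay on opposite sides of 0 in the 2 responses, -0.47 after CCl4 and 0.32 after partial hepatectomy, and differed by -0.76 ± 0.15 (edgeR adjusted p = 0.00424). That call was lost with scaling by library size alone (-0.47, adjusted p = 0.139). Pigr and Hal, which fell in both comparisons, differed by -0.62 ± 0.18 and -0.60 ± 0.20 (edgeR adjusted p = 0.0510 and 0.0871), neither past the threshold. Pigr passed with DESeq2 (adjusted p = 0.00260), limma-voom (0.0266) and RLE scaling (0.0469). The other 5 genes had adjusted p values of 0.469 or more. Without CCl4 replicate 1, 5 genes were called lower, adding Pigr (-0.76, edgeR adjusted p = 0.00271), Hal (-0.87, 0.000383) and Sds (-2.47, 0.0291), in a fit that called 2.00% of all genes higher and 5.63% lower.

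**Figure D3:**
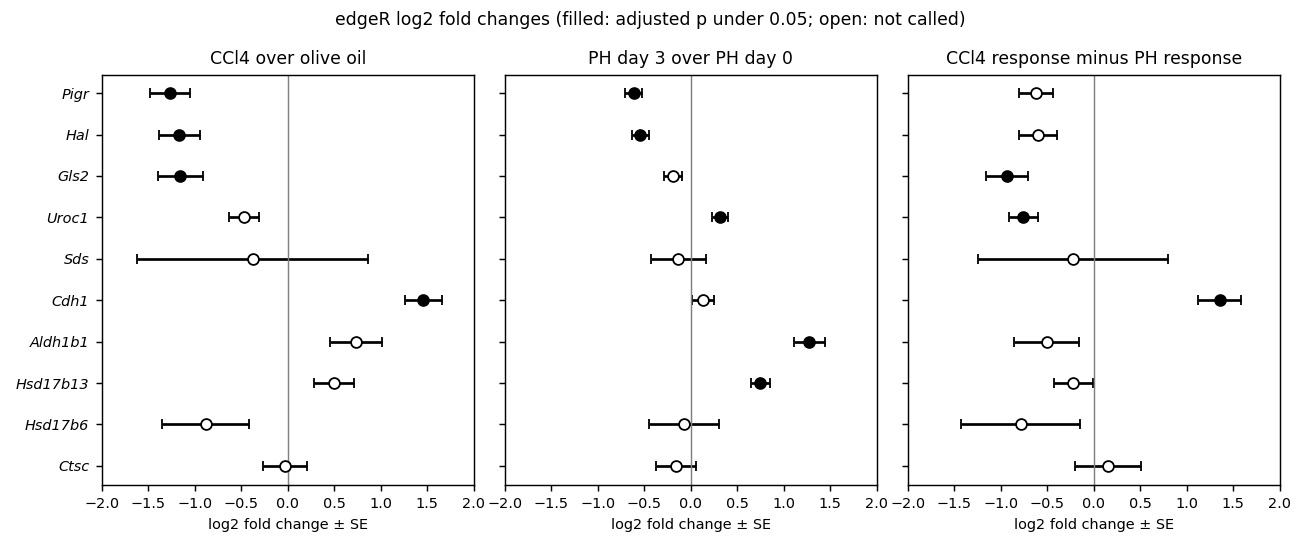
Log2 fold changes with 1 SE (horizontal axes) of the 10 periportal genes (rows) in CCl4 over olive oil, in PH day 3 over PH day 0, and as the CCl4 response minus the PH response; filled points passed an adjusted p of 0.05 in edgeR's quasi-likelihood test. Pigr and Hal are filled left of 0 in both comparisons, Cdh1 is filled in the CCl4 panel at 1.46 and in the difference panel at 1.36, and Uroc1 is right of 0 after partial hepatectomy at 0.32 and left of 0 after CCl4 at -0.47.

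Partner genes of the same pathways were counted from lists that hold none of the 10 genes, and some genes stand on more than 1 list. For histidine breakdown, neither of its 2 further genes passed the edgeR test in CCl4 livers, though both were lower at an unadjusted p under 0.05 and DESeq2 and limma-voom each called 1 of them. Both were called lower by edgeR without CCl4 replicate 1. After partial hepatectomy Ftcd, which carries on the pathway after urocanate, fell by 0.37 ± 0.09 on the log2 scale (edgeR adjusted p = 0.00543). In breakdown of serine, glycine and threonine, 1 of 9 genes tested rose and 2 fell in CCl4 livers. Those were Gldc, a subunit of the glycine cleavage system (0.69 ± 0.16), the serine hydroxymethyltransferase Shmt1 (-0.92 ± 0.17) and the serine racemase Srr (-0.81 ± 0.19). After partial hepatectomy 1 rose and 2 fell, with Sdsl, a relative of Sds, at 0.85 ± 0.22, Agxt at -0.43 ± 0.09 and Shmt1 at -0.30 ± 0.09.

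Of 9 genes of glutamine and ammonia handling, 2 rose and 3 fell in CCl4 livers, and 1 rose and 3 fell after partial hepatectomy. Without CCl4 replicate 1, 5 genes of that list were called lower in CCl4 livers, and the median log2 change was -0.85 instead of -0.17. Glul, the glutamine synthetase of pericentral cells, averaged 48.8 ± 10.6 CPM in CCl4 livers and 828 ± 47.6 CPM in olive oil livers (SD, n = 3 each), a log2 fold change of -4.10 ± 0.23. It averaged 452 ± 99.0 CPM in PH day 3 livers and 835 ± 109 CPM in PH day 0 livers (n = 5 each), a log2 fold change of -0.87 ± 0.13. The glutamine transporter Slc38a3 fell in both comparisons, with log2 fold changes of -1.28 ± 0.23 and -0.40 ± 0.10.

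Of 17 other 17-beta hydroxysteroid and retinol dehydrogenases, 1 rose and 6 fell in CCl4 livers, and 2 rose and 5 fell after partial hepatectomy. Rdh7 fell in both, with log2 fold changes of -0.92 ± 0.19 and -0.59 ± 0.09, and Dhrs9 rose in both, by 3.87 ± 0.74 and 1.52 ± 0.22. Dhrs9 averaged 1.00 ± 0.46 CPM (SD) in olive oil livers, near the worth of 3 counts. Of 13 other aldehyde dehydrogenases, 1 rose and 7 fell in CCl4 livers, against 2 and 2 after partial hepatectomy, and 7 were called lower in the difference of the responses. Aldh18a1, which makes proline precursors, was the 1 gene of that list called higher in both comparisons, at 2.19 ± 0.38 and 1.94 ± 0.38. Its baselines were low, at 2.16 ± 0.84 CPM (SD) in olive oil and 2.32 ± 1.22 CPM in PH day 0 livers. Aldh6a1 was called lower in both comparisons, at -1.21 ± 0.17 and -0.40 ± 0.09. In the lysosome list, 3 of 14 genes rose in CCl4 livers and 5 rose after partial hepatectomy, among them the cathepsins Ctsb (0.52 ± 0.09) and Ctsd (0.36 ± 0.09), while Ctsc itself was not called in either. Without CCl4 replicate 1 the lysosome count in CCl4 livers was 4 higher and 5 lower. None of 11 other adherens junction genes passed the edgeR test in CCl4 livers, where Cdh1 did. DESeq2 and limma-voom called none of them either, and 1 had an unadjusted edgeR p under 0.05. Of the same genes, Nectin1 was the 1 that passed after partial hepatectomy (0.39 ± 0.13). With scaling by library size, 2 of the 11 were called higher in CCl4 livers, and lower calls there came to 1 of the other hydroxysteroid and retinol dehydrogenases, 2 of the other aldehyde dehydrogenases and none of the serine, glycine and threonine genes.

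A wider list of other periportal genes and a list of pericentral genes set the 10 genes beside their zones. Of 21 other periportal genes tested, 1 rose and 4 fell in CCl4 livers (median log2 change -0.58, beside 0.01 over all genes), and 3 rose and 7 fell after partial hepatectomy (median 0.02, beside -0.01). Igfals, which binds insulin-like growth factors in blood, averaged 39.3 ± 9.97 CPM in CCl4 livers and 135 ± 1.52 CPM in olive oil livers (SD, n = 3 each). The periportal cytochrome Cyp2f2 averaged 1079.8 ± 143 CPM in PH day 3 livers and 1667 ± 92.1 CPM in PH day 0 livers (n = 5 each), a log2 fold change of -0.61 ± 0.10. Both genes were called lower in both comparisons. Cyp2f2 had a log2 fold change of -2.52 ± 0.51 in CCl4 livers, and Igfals one of -0.51 ± 0.11 after partial hepatectomy. Without CCl4 replicate 1, 2 of the 21 were called higher and 13 lower (median -0.87). In CCl4 replicate 1, 10 of the 21 were above every olive oil liver and 9 below every one, whereas replicate 2 had 2 above and 18 below and replicate 3 had 2 above and 19 below. The share of all genes was not counted for single livers, so these counts only describe the list.

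Of 20 pericentral genes tested, 1 rose and 11 fell in CCl4 livers (median -1.38), and 1 rose and 6 fell after partial hepatectomy (median -0.27). Cyp2e1, the cytochrome that activates carbon tetrachloride, averaged 499 ± 148 CPM in CCl4 livers and 7287 ± 808 CPM in olive oil livers, a log2 fold change of -3.89 ± 0.30. After partial hepatectomy its log2 fold change was -1.27 ± 0.14. The summed level of the pericentral list was 1904 to 3143 CPM in CCl4 livers, against 13839 to 16170 CPM in olive oil livers, with no overlap. The summed level of the other periportal list was 7887 to 20961 CPM in CCl4 livers, against 17831 to 18988 CPM in olive oil livers, which overlapped.

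**Figure D4:**
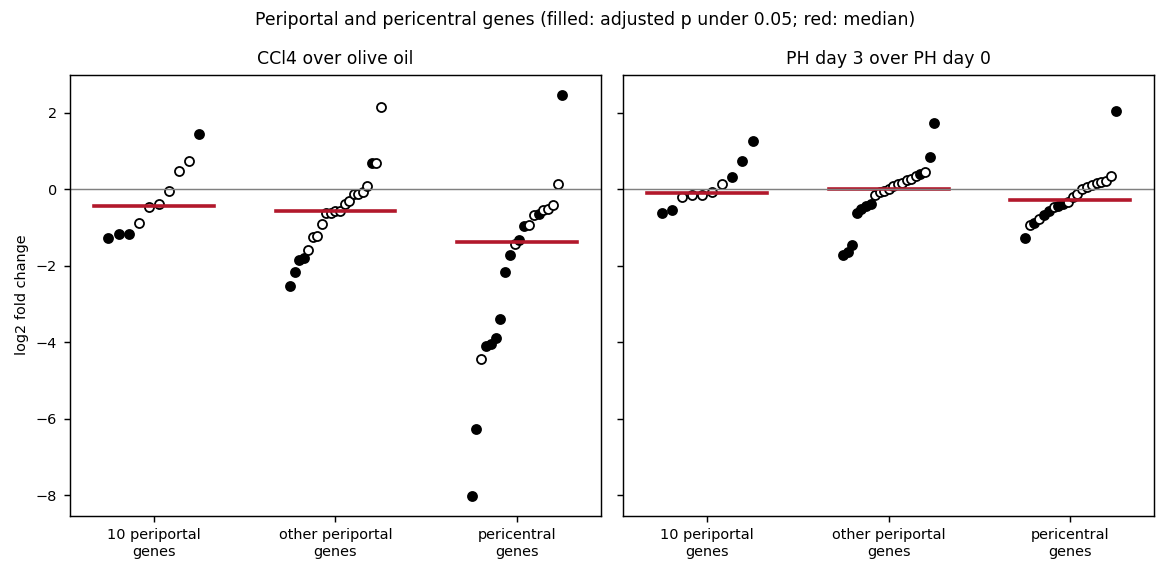
Log2 fold changes (vertical axes) of the 10 periportal genes, of other periportal genes and of pericentral genes, in CCl4 over olive oil (left panel) and in PH day 3 over PH day 0 (right panel); each point is 1 gene, filled where edgeR's adjusted p was under 0.05, and red lines are medians. The medians in CCl4 livers are -0.43, -0.58 and -1.38, and those after partial hepatectomy are -0.10, 0.02 and -0.27.

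Among regulators, 4 of 16 hepatocyte transcription factors fell in CCl4 livers, and 1 rose and 2 fell after partial hepatectomy. Cebpa, a factor of mature hepatocytes, fell in both, with log2 fold changes of -1.27 ± 0.24 and -0.64 ± 0.12. Of the glucagon and cAMP genes, the glucagon receptor Gcgr fell in both, with log2 fold changes of -1.10 ± 0.18 and -0.60 ± 0.10, and it was 1 of 2 genes of 14 that fell in CCl4 livers and the 1 of 13 that fell after partial hepatectomy. Irs2, an insulin receptor substrate, was the 1 of those 13 that rose (1.39 ± 0.28). In CCl4 livers, 1 gene of that list was called higher and 6 lower without CCl4 replicate 1. Of 13 genes of Wnt and beta-catenin signalling tested, 1 rose and 2 fell in CCl4 livers, and with scaling by library size 2 were called higher and none lower. None of them passed the edgeR test after partial hepatectomy, where 1 had an unadjusted p under 0.05, DESeq2 called 1 higher and limma-voom called none.

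Several of the 10 genes are also made by other liver cells, Cdh1 and Pigr by bile duct cells and Ctsc by immune cells. The 12 bile duct markers summed to 195 to 316 CPM in CCl4 livers, against 76.5 to 124 CPM in olive oil livers, and 169 to 276 CPM in PH day 3 livers, against 99.4 to 216 CPM in PH day 0 livers. In CCl4 livers 3 of the 12 were tested and Spp1, which macrophages also make, was the 1 that rose (1.71 ± 0.35). Spp1 alone averaged 219 ± 61.8 CPM (SD) in CCl4 and 65.7 ± 31.1 in olive oil livers. It averaged 169 ± 47.2 CPM in PH day 3 and 109 ± 41.0 in PH day 0 livers, so these sums were mostly Spp1. The defining duct keratin Krt19 was at 6.98, 3.19 and 0.489 CPM in CCl4 livers, against 0.750, 1.10 and 0.235 CPM in olive oil livers. The 13 macrophage markers summed to 421 to 608 CPM in CCl4 livers, against 180 to 550 CPM in olive oil livers. Of 12 macrophage markers tested, 3 rose and 1 fell in CCl4 livers. Stellate cell markers rose in 7 of 12 in CCl4 livers and in 5 of 12 after partial hepatectomy. Endothelial markers rose in 2 of 11 in CCl4 livers and fell in 3 of 12 after partial hepatectomy. Of the 11 lymphocyte markers, none passed the filter on low counts. Neutrophil markers reached 68.8 CPM in 1 CCl4 liver, against at most 17.1 CPM in olive oil livers, and the 2 that were tested did not pass edgeR, DESeq2 or limma-voom, nor an unadjusted p of 0.05. All 5 red blood cell markers fell in CCl4 livers (1 of 5 with scaling by library size), and 1 of 5 fell after partial hepatectomy. Of 9 general hepatocyte genes, edgeR and limma-voom called none in CCl4 livers, where 2 were lower at an unadjusted p under 0.05 and by DESeq2. Without CCl4 replicate 1, edgeR called 2 of the 9 lower in CCl4 livers (median -0.34). After partial hepatectomy 2 rose, among them albumin (Alb, 0.77 ± 0.11), and 3 fell. The part of these cells in the levels of the 10 genes was not tested.

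By position, the 10 genes lie on chromosomes 1, 4, 5, 6, 7, 8 and 10 of GRCm38. Hsd17b6 (chromosome 10, 127990936 to 128007611, minus strand) and Gls2 (chromosome 10, 128194457 to 128210004, plus strand) are neighbours, 187 kb apart with 12 genes between them, and only Gls2 passed a test. Hsd17b6 also lies beside a family of retinol dehydrogenases, with Rdh7 102 kb and Rdh19 129.8 kb away. Reads shared with such relatives were not counted, so its level is uncertain. Cdh1 lies on chromosome 8 (106603351 to 106670246, plus strand) and Pigr on chromosome 1 (130826684 to 130852249, plus strand), and neither overlaps another gene. Ctsc, Sds and Gls2 overlap genes of the opposite strand, which the strand-specific counting keeps apart.

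The genes most like the middle of the 10 were sought among genes with a mean of at least 5 CPM (9343, with the 10 included). The measure was the mean absolute log2 distance from the median profile of the 10 over all 16 samples. Lamp1 (0.08) and Lonp1 (0.09) were among the nearest. The 10 genes themselves lay from 0.15 (Uroc1) to 0.64 (Sds) from their own median profile. The nearest genes were picked for their small distance, so that the 10 lay farther is no result.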

How the data were processed

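Polyadenylated RNA of 16 mouse liver samples was sequenced on the Illumina platform from mRNA libraries of frozen tissue, per the labels' protocols. The deposited values are raw read counts, 1 table per sample. According to the authors, per the file headers, featureCounts 1.6.2 assigned reads to the exons of Ensembl release 95 genes (GRCm38), strand-specifically, and options that keep reads of several places or genes were not set. The submitters' processing notes also name STAR 2.5.1 and Subread, with no settings. Groups come from the labels. No 2 tables were identical, so each sample counted once. Nothing in the labels ties samples to separate animals, so p-values measure the spread between these samples, which may be technical.

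Symbols came from GENCODE M21, which named 54723 of 54838 identifiers. The main test was edgeR 4.0.16 (R 4.3.3), quasi-likelihood with robust dispersion and TMM factors, on genes kept by filterByExpr (count minimum 10, total minimum 15). Adjusted p-values (Benjamini-Hochberg over all genes tested) under 0.05 are calls. Each challenge was fitted against its own control, and their difference came from all 4 groups together. SE is |log2 fold change| over the root of F. TMM factors of all 16 samples gave CPM, and CPM per kb divides by the exon length in the tables. Floors of 3 counts cover counting error only. The scripts were tested on simulated data.

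Alternatives were scaling by library size, RLE or upper quartile, DESeq2 1.42.0, limma-voom (limma 3.58.1), other filters, a replicate block and leaving out each sample. All 10 genes are named in each comparison, with up to 3 genes of each list, those past the threshold with the smallest p in that comparison. Igfals, Cyp2f2 and Dhrs9 are also given in the comparison where they were not among those 3, and levels of Spp1 are given in every group. Krt19 is named besides as a defining marker, and Pck1 and Arg1 were picked after their values were seen. One gene that the likeness rule names is not reported here. The 10 genes and the lists were chosen with earlier results of these data known. Of the symbols listed, Tf matched no identifier. Motifs were searched by exact match in RefSeq promoter windows. Figures used matplotlib 3.10.9.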

Additional observations from a re-analysis of the deposited data

Results flagged for a closer look

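In 2 of the 20 sets of PH samples examined, 1 liver lay farther from the rest than Dixon's 95% limit allows, and chance does so in about 1 set in 20. Cdh1, E-cadherin, was highest in PH day 0 replicate 13, at 130.5 CPM, where the other 4 PH day 0 livers were at 88.4 to 101 CPM. Gls2, the liver glutaminase, was lowest in that same liver, at 272.2 CPM, where the other 4 were at 330.0 to 351 CPM. Groups of 3 samples were not examined in this way.

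Responses to CCl4 and to partial hepatectomy differed by a test of the difference itself for 3 of the 10 genes. The difference was 1.36 on the log2 scale for Cdh1, -0.93 for Gls2 and -0.76 for Uroc1, with the CCl4 response taken first. The experiments were separate, and experiment and challenge cannot be told apart.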

How the results depend on the processing

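Scaling by library size alone moved the median of all genes by 0.46 after CCl4, 0.13 after partial hepatectomy and 0.30 in the difference. It called 26.2% of genes higher and 3.73% lower after CCl4, 15.3% and 4.10% after partial hepatectomy, and 4.05% and 1.29% in the difference, so that 87.5%, 78.9% and 75.9% of calls were higher, against 49.2%, 54.8% and 27.5% with TMM. Upper quartile scaling gave 37.6% in the difference. Of the 10 genes, library size scaling called 3 higher after CCl4 (adding Aldh1b1 and Hsd17b13) and 1 lower in the difference. Without a filter, and in a fit of 4 groups, 2 were called higher after CCl4. With no filter, 4.88% of genes were called lower after partial hepatectomy, and 0.825% higher and 1.95% lower in the difference, of more genes tested. DESeq2 called 2.35% higher in the difference. Signs changed for uncalled genes: Ctsc after CCl4 was 0.421 (library size, below that shift), 0.0508 (upper quartile) and 0.0295 (limma-voom), Hsd17b6 after partial hepatectomy 0.0444 and Hsd17b13 in the difference 0.0905 (both library size). Leaving out 1 sample at a time, CCl4 calls ranged from 5.98% to 14.3% of genes higher and 6.67% to 15.6% lower, lowest without olive oil replicate 3, with 1 to 3 and 3 to 5 of the 10 genes. Calls of the difference ranged from 0.654% to 2.00% higher and 2.48% to 5.63% lower, lowest without that same sample, with 1 to 5 of the 10 lower. Ctsc ranged from -0.286 to 0.161 after CCl4 and -0.0917 to 0.360 in the difference, Sds from -2.64 to 0.151 after CCl4, -0.279 to 0.0579 after partial hepatectomy and -2.47 to 0.315 in the difference, and Hsd17b6 from -0.273 to 0.137 after partial hepatectomy. The cause was not tested. The calls of Cdh1, Pigr, Hal and Gls2 after CCl4 and of the 5 genes after partial hepatectomy were kept under every alternative run.

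PH samples share replicate numbers, and the labels do not say whether a number is an animal. Deviations of same-numbered samples correlated by -0.05 to 0.12 (3 of 5 best with their own number), and those of other numbers by -0.11 to 0.07. These ranges overlap and cannot decide whether the numbers are pairs, so the main test left them unpaired. With the replicate block, 9.80% of genes were called higher and 7.87% lower after partial hepatectomy, with 3 and 2 of the 10 genes, and 1.04% and 2.91% in the difference, with 1 and 2 of the 10.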
